A study of Homo sapiens with 6 samples.

Results

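The BCL2 family genes that set the threshold of mitochondrial apoptosis were examined in RNA-seq libraries of A2780, an established ovarian cancer line of human origin. The rows of the deposited table were chosen by gene symbol, for BCL2, BCL2L1, MCL1, BCL2L11, PMAIP1, BBC3, BAX, BAK1, BID and BIK, so 10 of 16571 genes were taken. Of the 6 libraries, 3 came from cells infected with a lentivirus carrying pGIPZ-NC, the control form of a short hairpin vector, and 3 from cells infected with a lentivirus carrying a hairpin against USP39 (shUSP39), a protein of the spliceosome. Both groups were stable lines selected with puromycin after infection per the study's methods, and which of its hairpins the shUSP39 libraries carried is not given in the labels. The series calls the 3 samples of a group biological triplicates without saying whether they were separate infections. The p-values thus set group differences against the spread between these samples only.

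Proteins of the BCL2 family decide whether the outer mitochondrial membrane stays intact. The guardians BCL2, BCL-XL (encoded by BCL2L1) and MCL1 hold back the effectors BAX and BAK1, which open pores and let cytochrome c out. The BH3-only proteins BIM (encoded by BCL2L11), NOXA (PMAIP1), PUMA (BBC3), BID and BIK bind the guardians and release or activate the effectors. Several of these genes are also textbook cases of alternative splicing, since BCL2L1, MCL1 and BCL2L11 give isoforms that differ in how strongly they promote or block cell death.

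The total was between 28294819 and 32939264 counts per library. Genes detected with any count numbered 12662 to 12819 in the pGIPZ-NC libraries and shUSP39 replicate 1, but 15446 and 14890 in shUSP39 replicates 2 and 3. Log2 levels of tested genes correlated at 0.984 to 0.988 within groups and at 0.959 to 0.963 between groups (Pearson's r across genes, which are not independent replicates). The targeted gene USP39 was not analysed here, which leaves the labels unchecked by it. Of 10 markers of serous ovarian carcinoma only KRT18 was at or above 1 CPM (the counts-per-million scale, over the total of all counts) in every library, while PAX8 had at most 6 counts, CDH1 at most 1, and WT1 was not analysed here. The listed markers did not move together. MUC16 had 5, 1 and 1 counts in pGIPZ-NC and 6, 150 and 71 in shUSP39, so it was high only in the shUSP39 libraries with more detected genes. KRT8 had 28, 37 and 26 counts in pGIPZ-NC and 3, 0 and 0 in shUSP39. The summed level of these markers was 21.9 to 25.3 CPM in pGIPZ-NC and 32.8 to 39.7 CPM in shUSP39. KRT18 made up most of that sum, with means of 22.2 CPM and 33.1 CPM. Among 6 markers of blood, endothelial and liver cells only CD68 reached 1 CPM in every library, and their sum was 9.17 to 11.8 CPM and 11.1 to 12.1 CPM. The part of these markers in the results below was not tested.

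The counts are per transcript, and the members entered with 18 rows. There were 5 rows for BCL2L11, 3 for BID, 2 each for BCL2 and BBC3, and 1 for each of the other 6 genes. RefSeq in its GRCh38.p14 annotation lists 10 coding transcripts for BCL2L1, 3 each for BCL2 and MCL1, 18 for BCL2L11 and 6 for PMAIP1. It lists 4 for BBC3, 8 for BAX, 7 for BID and 1 each for BAK1 and BIK. Rows for the other transcripts were not analysed here. Across all genes the median of the mean count was 82.4 where RefSeq lists 1 coding transcript. It was 55.8 with 2 to 4 and 41.1 with 5 or more. These medians compare different genes, so they do not show how reads shared between transcripts were counted, which was not tested. A value for any member with more than 1 coding transcript, PMAIP1 among them, may hold only a part of that gene's reads. For this reason levels were compared between groups within a gene and not between genes.

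The sequences of 3 sites are shown because they belong to the members with the clearest changes. The first is the end of the coding exon that both BCL2 transcripts share (chr18:60985282-60985344, GRCh37, minus strand), where NM_000633.2 (BCL2 alpha) is spliced and NM_000657.2 (BCL2 beta) reads on to its own stop codon. Capitals mark the GT of the 5′ splice site, the 30 bases before it are coding in both transcripts, and the 33 bases from it onward are coding in beta alone.
BCL2 exon end: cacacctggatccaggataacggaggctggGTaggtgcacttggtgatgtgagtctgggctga
The others are the 250 bases before the RefSeq start of PMAIP1 (chr18:59899746-59899995, GRCh38.p14, plus strand) and of BCL2 (chr18:63319770-63320019, GRCh38.p14, minus strand), the tested members with the largest rise and the largest fall. Capitals mark every match to the motifs searched.
PMAIP1: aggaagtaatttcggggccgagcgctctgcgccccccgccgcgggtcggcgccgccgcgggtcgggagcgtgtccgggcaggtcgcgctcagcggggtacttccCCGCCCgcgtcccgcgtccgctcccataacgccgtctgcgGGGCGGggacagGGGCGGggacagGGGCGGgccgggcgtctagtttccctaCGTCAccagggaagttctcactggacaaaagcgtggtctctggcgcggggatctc
BCL2: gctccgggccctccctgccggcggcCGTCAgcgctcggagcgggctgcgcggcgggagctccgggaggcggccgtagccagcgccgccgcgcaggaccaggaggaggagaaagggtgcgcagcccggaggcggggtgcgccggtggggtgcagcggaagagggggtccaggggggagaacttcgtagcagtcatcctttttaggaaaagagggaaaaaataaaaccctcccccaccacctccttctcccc

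The motifs searched on both strands were TGACG (the core of the cAMP response element), TGATGNAAN (the composite of C/EBP and ATF), GGGCGG (the GC box), CACGTG (the E-box), and, by name, the interferon-stimulated response element, the NF-kB site and the 10-base unit of the p53 response element, a full form of which holds a pair of such units. The PMAIP1 window held 4 GC boxes, the nearest ending 77 bases before the start, and 1 TGACG 55 to 51 bases before it, on the strand opposite to the gene. The BCL2 window held 1 TGACG, again on the strand opposite to the gene (capitals CGTCA as printed), and no other match. Of the 27305 promoters of this length, 21.7% held TGACG and 42.3% a GC box, so neither match was rare. The RefSeq promoter table held 8 of the 10 members, of which 4 had a TGACG, 5 a GC box, 2 an E-box, 1 (BAK1) a single p53 unit and none the C/EBP-ATF, interferon or NF-kB motif.

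To ask which members differed between shUSP39 and pGIPZ-NC, all genes were tested with the quasi-likelihood method of edgeR, whose adjusted p-values are given throughout. All 10 members passed the filter on low counts, PMAIP1 through its shUSP39 libraries alone. At a Benjamini-Hochberg adjusted p under 0.05, PMAIP1, BIK and BAK1 rose and BCL2 fell, so 4 of 10 passed where 33.6% of the 10695 tested genes did. With the 2-fold limit as well, PMAIP1 and BIK were called, 2 of 10 against 6.81% of tested genes (4.53% higher, 2.28% lower). The median log2 fold change was 0.18 over the members and 0.01 over all tested genes. In 6 members the groups did not overlap, against 44.5% of tested genes. The members were chosen with earlier results of these data known, so these shares are descriptive and do not test the family. In bulk RNA, fewer cells with a transcript and less of it in each cell cannot be told apart.

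**Figure D1:**
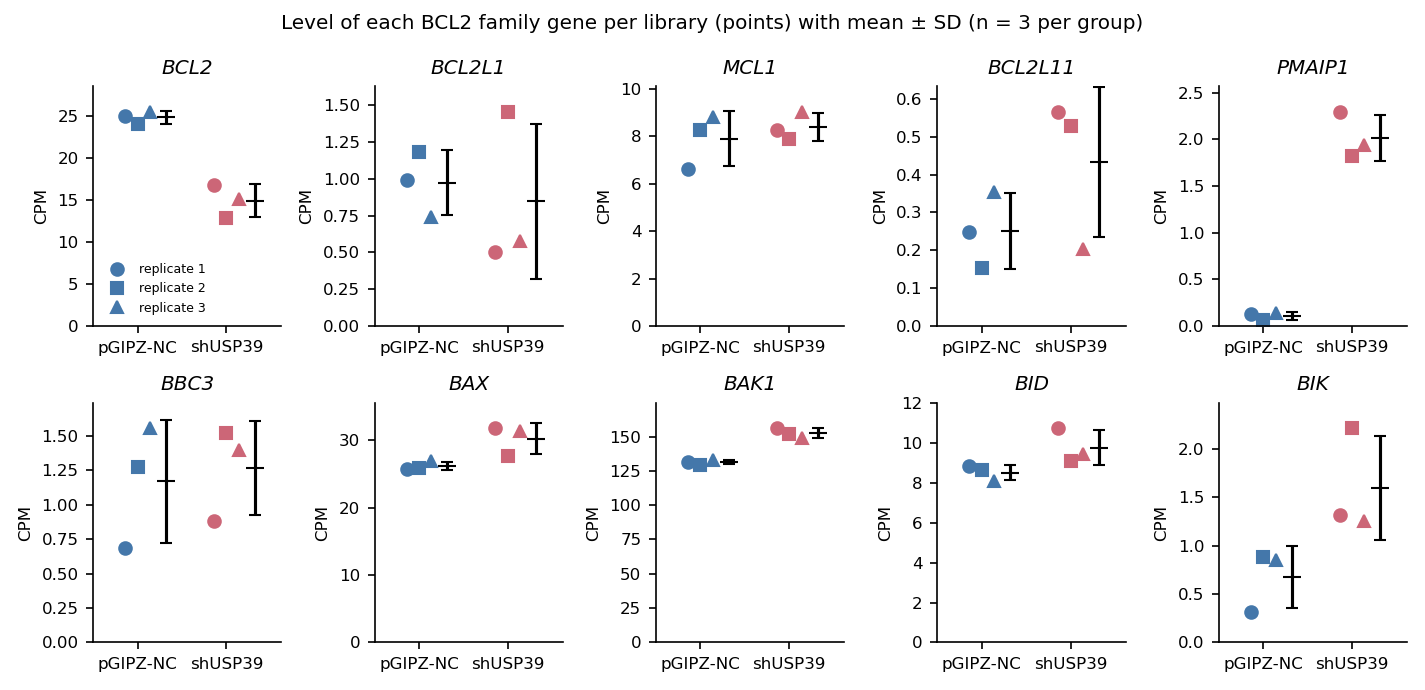
Level in CPM (y axis, from 0, scale differs between panels) of each of the 10 genes in the 3 pGIPZ-NC (blue) and 3 shUSP39 (red) libraries, with point shape giving the replicate number and black bars the mean ± SD (n = 3). The shUSP39 libraries lie above all pGIPZ-NC libraries in PMAIP1, BIK, BAX, BAK1 and BID and below them in BCL2, and the groups overlap in BCL2L1, MCL1, BCL2L11 and BBC3.

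Of the guardians, BCL2 was the member that moved. It lies on chromosome 18 (60790579 to 60987361, minus strand, GRCh37). In the order of the replicate numbers, which is kept for all genes, it had 808, 793 and 723 counts in the controls and 533, 390 and 446 in shUSP39. Each shUSP39 library was thus below each control library, and replicate 2 was the lowest of them. The controls averaged 24.9 ± 0.753 CPM and the shUSP39 libraries 14.9 ± 1.94 CPM (SD, n = 3 each). BCL2 fell 1.69-fold, or -0.76 on the log2 scale (SE 0.10, 95% interval -0.97 to -0.55, edgeR adjusted p 1.08e-06). This is short of the 2-fold limit, and 466 of the tested genes had a more negative log2 fold change. Of all tested genes, 2.95%, BCL2 included, passed the adjusted p with a fall at least as large as that of BCL2. The spread in pGIPZ-NC was 3.02% of the mean, near the 3.59% that counting alone gives, while in shUSP39 it was 13.0% against 4.68%.

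The shared exon end printed above separates the BCL2 rows. The alpha transcript NM_000633.2 encodes the membrane-anchored protein and held 95.4% of BCL2 counts, and the beta transcript NM_000657.2 lacks the exon with the membrane anchor. The alpha row had 786, 749 and 701 counts in pGIPZ-NC and 502, 368 and 417 in shUSP39. It fell by 0.79 on the log2 scale (SE 0.10, edgeR adjusted p 1.37e-06 over 12553 tested transcripts, of which 29.3% passed). The beta row had 22, 44 and 22 counts in pGIPZ-NC and 31, 22 and 29 in shUSP39. Its groups overlapped, and its log2 fold change was -0.08 (95% interval -0.94 to 0.77, edgeR adjusted p 0.909).

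The share of BCL2 counts in the beta row was 2.72%, 5.55% and 3.04% in pGIPZ-NC and 5.82%, 5.64% and 6.50% in shUSP39. All 3 shUSP39 shares lay above the control shares, with pGIPZ-NC replicate 2 close below them. The means were 3.77% ± 1.55 and 5.99% ± 0.455 (SD, n = 3 each). In edgeR's test of transcript usage over 1628 genes the adjusted p was 0.392, so the difference in proportions missed the threshold. In that test 3.81% of genes passed, and BCL2 was the only member with at least 2 tested rows, so usage could not be tested for the splicing cases BCL2L1, MCL1 and BCL2L11. The count of members past the test was 0, also at an unadjusted p.

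**Figure D2:**
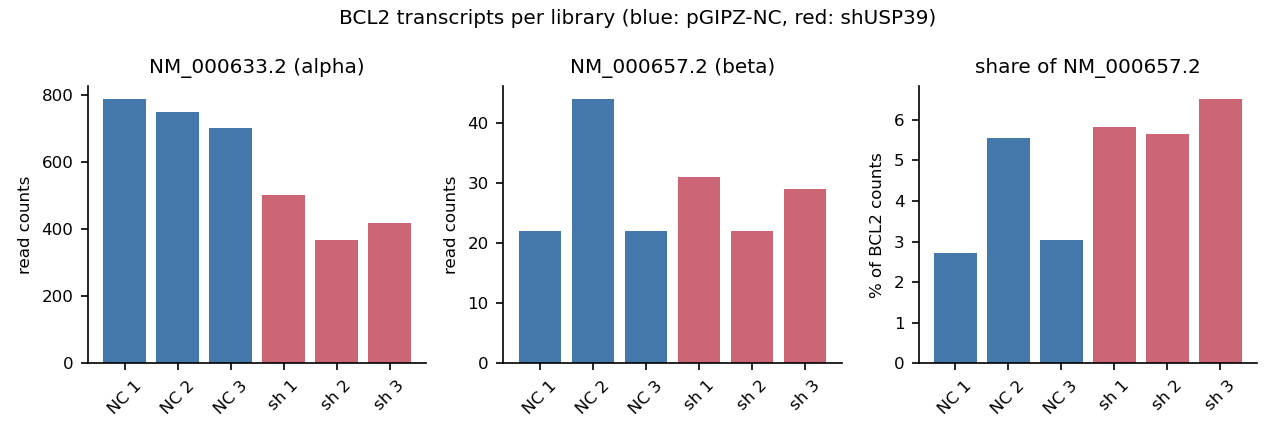
Read counts of the BCL2 alpha (left) and beta (middle) rows and the percent of BCL2 counts in the beta row (right) in each library, pGIPZ-NC in blue and shUSP39 in red, y axes from 0. The alpha row is lower in the shUSP39 libraries (368 to 502 counts against 701 to 786), whereas the beta row ranges from 22 to 44 counts with the groups overlapping.

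The other guardians showed no detectable change. MCL1 (chromosome 1, 150533371 to 150552214, minus strand, GRCh37) is a short-lived protein that binds NOXA and BIM. Its row NM_021960.4 had 213, 272 and 250 counts in pGIPZ-NC and 263, 239 and 266 in shUSP39. The groups overlapped, with 7.90 ± 1.16 CPM against 8.41 ± 0.582 CPM (SD, n = 3 each). Its log2 difference was 0.07 (SE 0.15, edgeR adjusted p 0.776), with an interval that reaches from 0.850-fold to 1.29-fold.

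BCL2L1 (chromosome 20, 30252255 to 30311792, minus strand, GRCh37) was covered by the single row NM_001322240.1. It had 32, 39 and 21 counts in pGIPZ-NC and 16, 44 and 17 in shUSP39. In shUSP39 replicate 2 it was above every control library, and in replicates 1 and 3 below all of them. Its log2 fold change was -0.24 (95% interval -1.17 to 0.70, edgeR adjusted p 0.743), and it was 0.028 without shUSP39 replicate 1. The shUSP39 libraries spread by 62.6% of their mean where counting gives 19.7%, so the libraries differed by more than counting error, and the fitted fold interval of 0.444 to 1.63 was wider than the counting interval of 0.624 to 1.17.

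The largest change of the family was in PMAIP1, which encodes NOXA, a BH3-only protein that binds MCL1 and marks it for degradation. It is found on chromosome 18 (57567228 to 57571537, plus strand, GRCh37). Its single row NM_021127.2 had 4, 2 and 4 counts in pGIPZ-NC and 73, 55 and 57 in shUSP39. Hardly any reads were thus found in the control libraries, whereas the shUSP39 libraries had a like number of them. The mean thus went from 0.109 ± 0.0425 CPM in the controls to 2.02 ± 0.249 CPM (SD, n = 3 each).

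The fitted log2 fold change of PMAIP1 was 4.16 (SE 0.50, edgeR adjusted p 1.97e-07). PMAIP1 entered this test through its shUSP39 libraries alone, as each control library had only 2 to 4 counts. In summed counts, 185 against 10, the ratio of levels was 18.9 with a 95% counting interval of 10.05 to 40.1, which covers counting error only. Of all tested genes 29 had a larger fitted rise. Relative to the control mean, shUSP39 replicates 1, 2 and 3 were 21.1, 16.7 and 17.8 times higher, so the rise was as large in replicate 1 as in both libraries with more detected genes.

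BIK, which acts at the endoplasmic reticulum and the mitochondrion, was the other BH3-only gene to rise. Its locus is on chromosome 22 (43506756 to 43525718, plus strand, GRCh37). Its counts were 10, 29 and 24 in pGIPZ-NC and 42, 67 and 37 in shUSP39. The groups did not overlap, but pGIPZ-NC replicate 1 was well below the other controls and shUSP39 replicate 2 well above its group. The groups averaged 0.680 ± 0.320 CPM and 1.60 ± 0.536 CPM (SD, n = 3 each), a spread of 47.1% and 33.5% of the mean where counting gives 21.8% and 14.3%. The log2 fold change was 1.21 (SE 0.43, edgeR adjusted p 0.0293). The call was lost without pGIPZ-NC replicate 1 (log2 fold change 0.86, adjusted p 0.129) and without shUSP39 replicate 2 (0.90, adjusted p 0.198), and also when shUSP39 replicate 1 alone was set against the controls (0.94, adjusted p 0.347).

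The remaining BH3-only genes did not pass. BBC3 (chromosome 19, 47724079 to 47736023, minus strand, GRCh37) encodes PUMA, which binds all guardians. Its counts were 22, 42 and 44 in pGIPZ-NC and 28, 46 and 41 in shUSP39. The groups overlapped widely, with replicate 1 lowest in each. Its log2 fold change was 0.09 (95% interval -0.71 to 0.89, edgeR adjusted p 0.889). All but 1 of the BBC3 counts were in row NM_014417.4, and the other row, NM_001127240.2, had that count in shUSP39 replicate 2.

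BID (chromosome 22, 18216904 to 18257536, minus strand, GRCh37) is cleaved by caspase-8 and so links death receptors to mitochondria. It had 285, 285 and 229 counts in pGIPZ-NC and 342, 275 and 279 in shUSP39. On the CPM scale the shUSP39 libraries (9.09 to 10.8 CPM) lay just above the controls (8.09 to 8.84 CPM), with replicate 1 the highest. The log2 fold change was 0.17 (SE 0.13, edgeR adjusted p 0.357). Row NM_001196.3 held 95.6% of BID counts, row NM_197966.2 had 6 to 15 counts per library and row NM_001244567.1 had 0 to 7.

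BCL2L11 (chromosome 2, 111876955 to 111926021, plus strand, GRCh37) encodes BIM, whose isoforms differ in potency. Its rows summed to 8, 5 and 10 counts in pGIPZ-NC and 18, 16 and 6 in shUSP39. Replicates 1 and 2 of shUSP39 were above every control and replicate 3 was not. The log2 fold change was 0.77 with a 95% interval of -0.58 to 2.12 (edgeR adjusted p 0.402). Row NM_001204107.1 held 58.7% of these counts and NM_001204113.1 held 25.4%. None of the 5 rows passed the filter to be tested alone, so a shift between BIM isoforms was not tested.

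The effectors were the most deeply counted members. BAK1 (chromosome 6, 33540324 to 33548070, minus strand, GRCh37) sits in the outer mitochondrial membrane and has 1 coding transcript in RefSeq. It had 4244, 4269 and 3764 counts in pGIPZ-NC and 4961, 4599 and 4376 in shUSP39. Scaled to depth, the shUSP39 libraries (149 to 156 CPM) were all above the controls (130 to 133 CPM), with a narrow spread in both groups. BAK1 rose 1.14-fold, or 0.19 on the log2 scale (SE 0.04, 95% interval 0.10 to 0.28, edgeR adjusted p 0.00152). The rise was small and well short of the 2-fold limit.

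BAX (chromosome 19, 49458072 to 49465055, plus strand, GRCh37) is held in the cytosol until apoptosis begins. Its row NM_001291428.1 had 827, 854 and 760 counts in pGIPZ-NC and 1010, 836 and 921 in shUSP39. The levels did not overlap, at 25.7 to 26.9 CPM against 27.6 to 31.8 CPM, and shUSP39 replicate 2 was close to the controls. The log2 fold change of 0.19 (SE 0.08) was of the size seen in BAK1, but its edgeR adjusted p was 0.0909. BAX passed under upper-quartile scaling (adjusted p 0.0346) and without shUSP39 replicate 2 (adjusted p 0.0423).

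**Figure D3:**
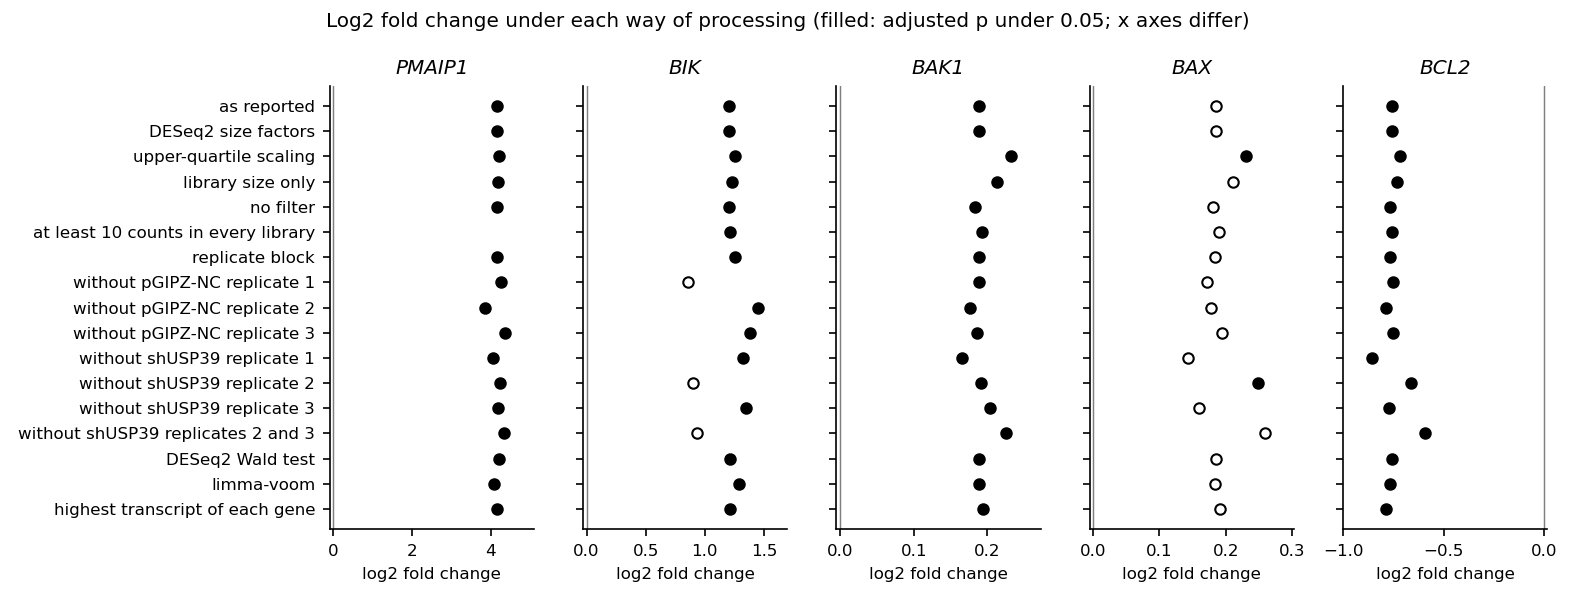
Log2 fold change of shUSP39 against pGIPZ-NC (x axes, which differ) for PMAIP1, BIK, BAK1, BAX and BCL2, as reported and under 16 other ways of processing (rows), with filled points where the adjusted p was below 0.05. PMAIP1 (from 3.86 to 4.36, not tested with at least 10 counts in every library), BAK1 and BCL2 stay filled, BIK is open in 3 rows and BAX is filled in 2.

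**Figure D4:**
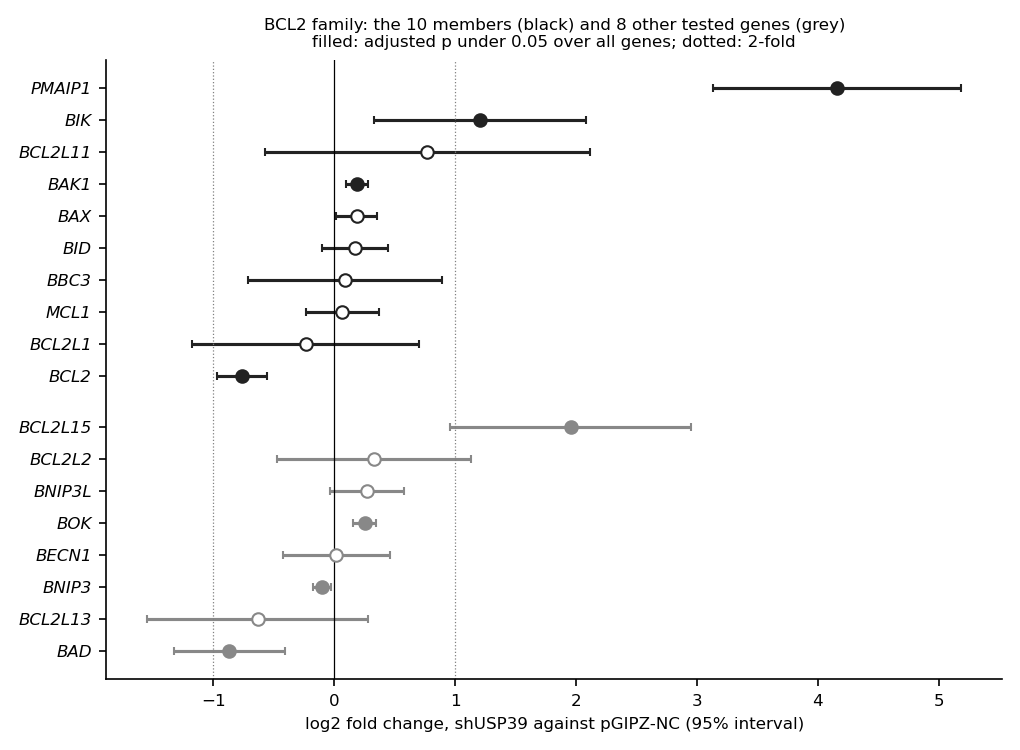
Log2 fold change of shUSP39 against pGIPZ-NC (x axis, points) with 95% intervals (bars) for the 10 members in black and the 8 other tested BCL2 family genes in grey, filled where the adjusted p was below 0.05 and with dotted lines at 2-fold. PMAIP1 stands farthest from 0 at 4.16, BCL2 is the member with the lowest value at -0.76, and the intervals of BCL2L11, BCL2L1 and BBC3 are wide.

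The rest of the BCL2 family was read from a list of 15 further genes, of which 8 were tested, 2 rose, 2 fell and 4 did not pass. Thus 50% of these tested genes passed, where 33.6% of all tested genes did. BCL2L15, a little studied family member, had 0.313 ± 0.0873 CPM in the controls and rose to 1.24 ± 0.338 CPM (SD over 3 libraries each, edgeR adjusted p 0.00227). BOK, an effector related to BAX and BAK1, rose from 169.7 ± 7.25 CPM to 206 ± 12.5 CPM (edgeR adjusted p 0.000101). With shUSP39 replicate 1 alone against the controls, neither BCL2L15 (log2 fold change 1.74, adjusted p 0.129) nor BOK (0.15, adjusted p 0.0915) passed in edgeR. BAD, a BH3-only protein under control of growth factor signalling, fell from 5.62 ± 0.452 CPM to 3.14 ± 1.21 CPM, or 1.82-fold (adjusted p 0.00314). BNIP3, a mitophagy receptor, had a log2 fold change of -0.10 (adjusted p 0.0441), which missed the threshold in 11 of 16 alternatives. BCL2L2, BCL2L13, BNIP3L and BECN1 had log2 fold changes of 0.33, -0.63, 0.27 and 0.02 and adjusted p-values of 0.564, 0.301, 0.166 and 0.963. BCL2L10, BMF and BCL2L14 were under the filter, and BCL2A1, HRK, BCL2L12 and BCLAF1 were not analysed here.

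The genes around the family were then compared from 5 further lists. With the BCL2 family genes above, 54 listed genes outside the members were tested, of which 7 rose and 7 fell, a split that was 10 and 4 under upper-quartile scaling. This is 25.9%, below the 33.6% of all tested genes. In the list of the apoptosome and caspases, CASP9, CASP4 and AIFM1 were under the filter and APAF1 was not analysed here. None of its 10 tested genes passed in edgeR. With DESeq2 the count was also 0, with limma-voom it was 1, and at an unadjusted p under 0.05 in edgeR it was 1, ENDOG (log2 fold change 0.30, adjusted p 0.0653), which is named after its values were seen.

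Among inhibitors of apoptosis and their antagonists, 2 of 7 tested genes rose and 1 fell (42.9% passed, against 33.6% of all tested genes). BIRC3 (cIAP2), a ubiquitin ligase of NF-kB signalling, rose from 4.24 ± 1.27 CPM in the controls to 15.4 ± 0.448 CPM (SD over 3 libraries each), or 1.83 on the log2 scale (SE 0.16, edgeR adjusted p 7.51e-10). Its relative BIRC2 (cIAP1) rose from 5.31 ± 1.22 CPM to 10.2 ± 1.23 CPM (adjusted p 7.08e-05). BIRC6, a giant ubiquitin-conjugating protein, had a log2 fold change of -0.18 (adjusted p 0.000241). In the death receptor arm 1 of 7 tested genes (14.3%) passed. It was TNFRSF10B, a receptor of TRAIL, which rose from 11.5 ± 0.355 CPM to 15.7 ± 1.43 CPM (adjusted p 0.00439).

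Of 14 tested partners and regulators of the family, 1 rose and 1 fell (14.3% passed, against 33.6% of all tested genes). HUWE1, a ubiquitin ligase of MCL1, fell from 1477 ± 56.2 CPM in the controls to 1235 ± 28.5 CPM (SD over 3 libraries each), or -0.28 on the log2 scale (SE 0.03, edgeR adjusted p 2.97e-08). MARCHF5, a mitochondrial ubiquitin ligase, had a log2 fold change of 0.13 (adjusted p 0.0205), which missed the threshold in 5 of 16 alternatives. Of 8 tested RNA-binding proteins that act on splicing of BCL2L1, MCL1 or BCL2L11, 1 rose and 3 fell (50% passed, against the same 33.6%). RBM25, which favours the short BCL2L1 isoform, fell from 999.7 CPM to 817 CPM (log2 fold change -0.32, SE 0.04, edgeR adjusted p 6.99e-08). SRSF9 had a log2 fold change of -0.12 (edgeR adjusted p 0.00669), but passed neither under upper-quartile scaling (adjusted p 0.0840) nor with shUSP39 replicate 1 alone (adjusted p 0.211). SF3B1, named after its values were seen, had -0.09 (edgeR adjusted p 0.0372), but passed neither under upper-quartile scaling nor with scaling to library size only. Its groups overlapped, at 968 to 1028 CPM in pGIPZ-NC and 927 to 979 CPM in shUSP39. HNRNPF had 0.29 (edgeR adjusted p 0.00796), but -0.12 (adjusted p 0.474) when its most abundant row was used in place of the sum. It also missed the threshold without pGIPZ-NC replicate 1 (edgeR adjusted p 0.0592) and without shUSP39 replicate 2 (adjusted p 0.0530). The medians of the 6 lists ran from -0.04 in the RNA-binding proteins to 0.16 in the partners and regulators, against 0.01 over all tested genes.

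**Figure D5:**
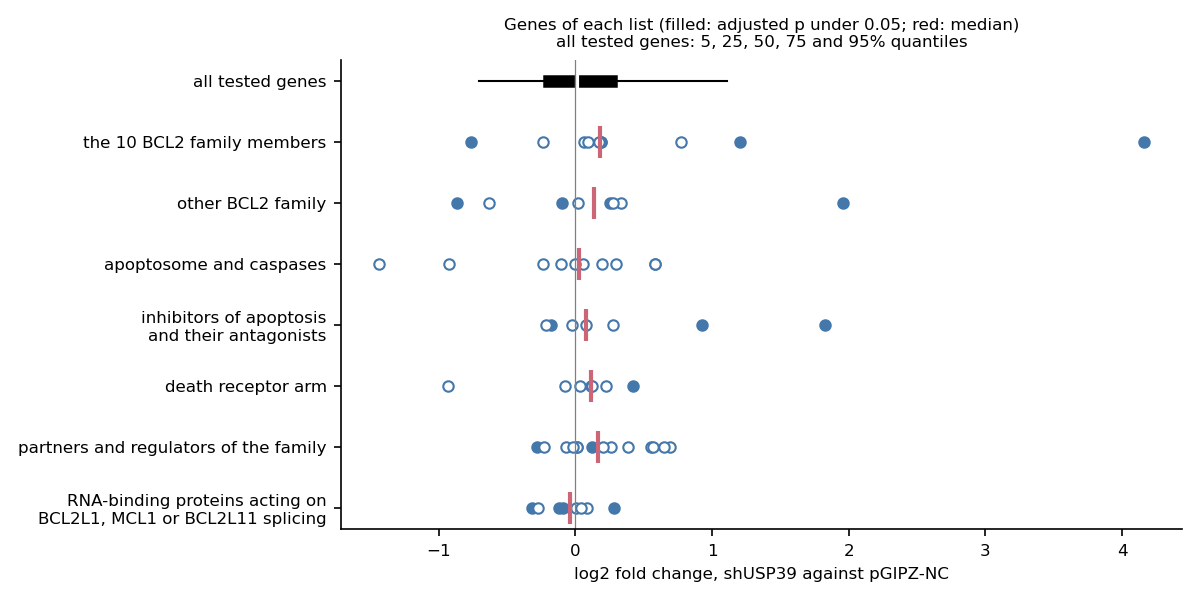
Log2 fold change of shUSP39 against pGIPZ-NC (x axis) of each tested gene in the 7 lists (circles, filled where the adjusted p was under 0.05) with the list median in red, below the quantiles of all 10695 tested genes (thin line 5% to 95%, thick line 25% to 75%). Most genes of every list lie within the thin line, which runs from -0.71 to 1.11, with PMAIP1, BCL2L15, BIRC3 and BIK beyond it on the right and BCL2, BAD, CASP8, CASP10 and TNFRSF10C beyond it on the left, of which the last 3, named after their values were seen, did not pass.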

How the data were processed

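The authors deposited 1 table of raw read counts per RefSeq mRNA transcript, with 1 column per library. HISAT2, Cufflinks and the build hg19 are named in the submitters' processing notes, and the counter and the annotation release are not given in the sources used here. The table's columns of group means, fold changes, p-values and q-values are the authors' comparisons and were not used.

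Counts were summed per symbol (21368 rows, 16571 genes), with 46 symbols in date form replaced through the accession and 1 left. After filterByExpr and TMM scaling, genes were tested by robust quasi-likelihood in edgeR 4.0.16 (R 4.3.3), with group as the only term. Transcript rows were fitted the same way and usage with diffSpliceDGE. Adjusted p-values are Benjamini-Hochberg over all features tested, the limits were 0.05 and a log2 fold change of 1, and the SE is the absolute log2 fold change over the root of F. Fits were first tested on simulated data. Groups and replicate numbers came from the titles. CPM uses the total of all counts. Alternatives were DESeq2 1.42.0, limma 3.58.1 (voom), other scalings and filters, a replicate block and left-out libraries. The members and lists were chosen with earlier results of these data known. Named genes were all members and their rows, the tested genes of the family list, and in each other list the 3 largest changes past the adjusted p. Coordinates came from GENCODE 44 on GRCh37, which is hg19, and promoters from RefSeq on GRCh38.p14. No library was a copy of another (lowest chi-square over degrees of freedom within a group 4.69).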

Additional observations from a re-analysis of the deposited data

How the results depend on the processing

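Over the 10 members, 147 of 157 values kept their direction and side of the threshold across the alternatives. The calls of PMAIP1 (log2 fold change 3.86 to 4.36), BCL2 (-0.86 to -0.59) and BAK1 (0.17 to 0.23) held in each alternative that tested them, although at least 10 counts in every library removed PMAIP1. The number of members past the adjusted p ran from 3 to 4 with 1 library left out and was 3 when shUSP39 replicates 2 and 3 were both left out, an alternative chosen after seeing the data that assumes the lone shUSP39 library varies like the controls. Members beyond 2-fold numbered 1 in that alternative, 1 where every library needed 10 counts, and ran from 1 to 2 with 1 library left out. Without shUSP39 replicates 2 and 3, 2244 genes and 8 of the other apoptosis genes passed the adjusted p, with fewer samples. Genes called beyond 2-fold were 471 with at least 10 counts in every library, where low genes drop out, and 1226 with a 1.5-fold limit.

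Directions turned in results that had not passed. With 1 library left out, MCL1 ran from -0.048 (without pGIPZ-NC replicate 1) to 0.14, BCL2L1 from -0.87 to 0.028 (without shUSP39 replicate 1), BBC3 from -0.19 (without pGIPZ-NC replicate 1) to 0.33, its row NM_014417.4 from -0.20 to 0.32, the beta row NM_000657.2 of BCL2 from -0.27 to 0.27 (without pGIPZ-NC replicate 2) and BECN1 from -0.10 to 0.15. Without shUSP39 replicates 2 and 3, BBC3 was -0.43, NM_014417.4 was -0.42 and NM_000657.2 was 0.040. HNRNPF, which had passed, was -0.12 with the highest transcript row. The cause was not tested.

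With the replicate number as a block, 4 members again passed the adjusted p and 2 were beyond 2-fold, PMAIP1 among them, with 3981 genes past the adjusted p against 3598 without it. Deviations of same-numbered samples correlated at 0.0611, 0.0043 and 0.0164, and not every sample correlated best with its own number. These values cannot show whether same-numbered samples share anything beyond the number. Upper-quartile scaling made 58.05% of the genes past the adjusted p higher, against 47.97% in the report, and with no filter the genes' median log2 fold change was 0.12. BCL2L1, BCL2L11, BBC3 and the beta row of BCL2 had at most 46 counts per library, and BCL2L1 and BBC3 also spread between libraries by more than counting gives (62.6% of the mean against 19.7%, and 38.1% against 16.7%, in their more variable group).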
